A study of Arabidopsis thaliana with 12 samples.

Results

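Expansins and xyloglucan endotransglucosylase/hydrolases (XTH) are 2 families of secreted proteins that act on the growing plant cell wall. The genes described here are all entries of the deposited table that have a gene identifier and a description naming either family, 68 of the 33197 entries with an identifier: 35 expansin genes (25 EXPA, 6 EXPB, 3 EXLA and 1 EXLB) and 33 XTH genes. Expansins loosen the wall without cutting it, by weakening the contact between cellulose and the polymers around it, and are most active in acid walls. XTH enzymes cut xyloglucan, the polymer that ties cellulose microfibrils together in the primary wall, and join the cut end to another xyloglucan chain or to water. In leaves both families are known for their part in cell expansion, and several members respond to light, brassinosteroids, auxin or mechanical stimuli.

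RNA came from leaves of Arabidopsis thaliana, ecotype Columbia, harvested when the leaves were 18 days old. There were 3 libraries for each of 4 groups: wild type and the mutants labelled anac017, anac082 and anac090, made in the Columbia background. The mutants are T-DNA insertion lines of NAC transcription factor genes; the labels name the SALK, SAIL and GABI-KAT collections without saying which line came from which. Plants grew in a 16-h light and 8-h dark cycle. Nothing in the labels ties the 3 libraries to separate plants or pools, and the p-values therefore reflect the spread between these libraries alone, which may be technical. The values were log2(abundance + 1), made equal in distribution between libraries before deposit, so depth is unknown and a change in total RNA cannot be seen. A fold change on this scale understates the change of genes with low values.

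Several facts of the series bear on the results. The transcript of the targeted gene was not lower under 2 of the 3 labels: ANAC017 stood at 6.75 ± 0.08 in the libraries labelled anac017 and 5.89 ± 0.10 in wild type (SD, n = 3), ANAC082 at 9.82 ± 0.10 in those labelled anac082 and 5.02 ± 0.05 in wild type, and ANAC090 at 0.95 ± 0.26 in those labelled anac090 and 1.54 ± 0.20 in wild type. Group names below therefore stand for the labels. On the first principal component of all tested genes (51.0% of the variance) wild type libraries scored -35.6 to -29.7, anac082 library 1 scored -27.0 and anac090 library 3 scored 74.1, with the other mutant libraries from -12.8 to 21.6. Leaf markers were present (RBCS1A from 10.95 to 11.21 over all libraries), and the root hair markers COBL9 and RHD6 were listed at 0 in all 12 libraries. The summed level of 3 floral markers was at most 1.45 in any library on the back-transformed scale. A clock index, the CCA1 and LHY mean less that of 5 evening genes, stood at 2.55 ± 0.93 for wild type. It was 1.43 ± 0.91 for anac017, 1.76 ± 0.93 for anac082 and 1.46 ± 0.72 for anac090, and its part in the results was not tested.

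Of the 68 genes, 35 averaged 1 or more across the 12 libraries after back-transformation and entered the test: 12 EXPA, 2 EXPB, 1 EXLA, 1 EXLB and 19 XTH. A further 20 genes were listed at 0 in every library, 12 expansins and 8 XTH, and 13 were above 0 in at least 1 library but too low to be tested. EXPA7 and EXPA18, known from root hairs, were among those listed at 0, as were EXPA22 to EXPA26, which lie side by side on chromosome 5 with EXPA21. The others listed at 0 were EXPA2, EXPB2, EXPB4, EXPB5, EXPB6, XTH1, XTH2, XTH12, XTH13, XTH14, XTH20, XTH21 and XTH26. The low ones were EXPA12, EXPA15, EXPA17, EXPA20, EXPA21, EXLA2, EXLA3, XTH3, XTH8, XTH11, XTH15, XTH17 and XTH29. XTH33 passed the limit only through the anac090 libraries, and XTH18 would have missed it without either the anac017 or the anac090 libraries. The test was limma over all 16817 genes that passed the limit, with Benjamini-Hochberg adjustment and a threshold of 0.05, and each comparison with wild type uses the same 3 wild type libraries. In bulk leaf RNA, fewer cells of a type and less RNA per cell cannot be told apart.

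The mean of the alpha expansins was below wild type in every mutant library. In anac017 all 12 tested EXPA estimates were below 0, with a median log2 difference of -0.76 against -0.02 over all 16817 tested genes. In anac090 all 12 were below 0 as well, with EXPA9 at 0 to 2 decimals, and the median was -0.79 against -0.03 over all tested genes. In anac082 the estimate was below 0 for 11 of 12, with a median of -0.42 against -0.01 over all tested genes. Of all tested genes, 53.2% had an estimate below 0 in anac017, 53.9% in anac090 and 52.5% in anac082. Counting only genes whose 3 mutant values all lay below the 3 wild type values, 8 of 12 EXPA genes did so in anac017, where 22.6% of all tested genes did, 9 of 12 in anac090 (18.2% of all tested genes) and 5 of 12 in anac082 (10.3%). Few of these differences passed the threshold in limma. EXPA4 fell in anac017, 1 of the 35 tested members, against 0.612% of all tested genes called lower there. EXPA10 and EXPA11 fell in anac090, with 2 XTH genes, against 3.65% of all tested genes called lower there.

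EXPA4 (AT2G39700, chromosome 2, 16543832 to 16545584 in the table's TAIR10 coordinates), an alpha expansin, stood at 3.43, 3.74 and 3.98 in wild type libraries 1 to 3 and at 1.91, 2.98 and 2.61 in anac017. All 3 anac017 values lay below all 3 wild type values, and the fall was 2.32-fold (-1.22 ± 0.25 SE, limma adjusted p = 0.0360). The anac090 libraries were also below wild type, at 3.02, 2.96 and 2.67 (-0.83 ± 0.25, limma adjusted p = 0.0610, and 0.0417 in a fit that adds a block for same-numbered libraries). In anac082 it stood at 3.40, 3.50 and 3.08, which overlapped wild type. The call in anac017 was lost on leaving out any 1 wild type library, anac017 library 1 or 3, anac082 library 2 or 3, or anac090 library 1. Over the 12 such fits the log2 change was -1.46 to -0.92 and the adjusted p 0.0130 to 0.132.

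EXPA11 (AT1G20190, chromosome 1, 6998489 to 6999817) stood at 4.91, 5.13 and 4.82 in wild type and at 3.62, 4.12 and 2.70 in anac090, a fall of 2.79-fold (-1.48 ± 0.36, limma adjusted p = 0.0406). Its values in anac017 were 3.25, 3.89 and 3.97 (-1.25 ± 0.36, limma adjusted p = 0.0819) and those in anac082 4.64, 3.87 and 3.55 (-0.94 ± 0.36, 0.664). No mutant library reached the lowest wild type value. EXPA10 (AT1G26770, chromosome 1, 9259605 to 9261313), whose level is known to alter leaf size, stood at 1.95, 2.32 and 2.30 in wild type and 1.47, 1.72 and 1.55 in anac090. This was a fall of 1.53-fold without overlap (-0.61 ± 0.15, limma adjusted p = 0.0418). In anac017 EXPA10 lay within the wild type range or just above it, at 1.96, 2.37 and 2.00 (-0.08 ± 0.15), and the difference between anac017 and anac090 was 0.53 ± 0.15 (limma adjusted p = 0.146, and 0.0624 with the block).

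Other EXPA genes showed lower values without passing the threshold. EXPA1, known from guard cell walls, was at 8.73, 8.59 and 8.86 in wild type, 8.04, 7.99 and 8.24 in anac017 and 8.53, 8.11 and 7.29 in anac090 (-0.64 ± 0.24 and -0.75 ± 0.24, limma adjusted p = 0.144 and 0.0722). EXPA6 was at 4.85, 5.27 and 5.30 in wild type and 3.73, 4.08 and 4.08 in anac017 (-1.18 ± 0.27, limma adjusted p = 0.0531, and 0.0387 with the block). EXPA8 was at 6.80, 6.89 and 6.64 in wild type and 5.34, 5.91 and 5.63 in anac017 (-1.15 ± 0.47, limma adjusted p = 0.165). For these 3 genes no anac017, anac082 or anac090 value reached the lowest wild type value. EXPA3 differed by -1.33 ± 0.40 in anac090 (limma adjusted p = 0.0628, and 0.0215 with the block). EXPA5, a growth gene of the brassinosteroid response, ranged from 0.42 to 3.14 in anac090 and from 2.80 to 3.56 in wild type (-1.24 ± 0.56, 0.151). EXPA9 did not share the pattern: it differed by -0.17 ± 0.28, 0.07 ± 0.28 and 0.00 ± 0.28 in anac017, anac082 and anac090, and the 95% interval in anac090 ran from -0.62 to 0.62. EXPA16 also overlapped wild type in all 3 mutants, with estimates of -0.66 ± 0.50, -0.15 ± 0.50 and -0.03 ± 0.50 in the same order.

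**Figure D1:**
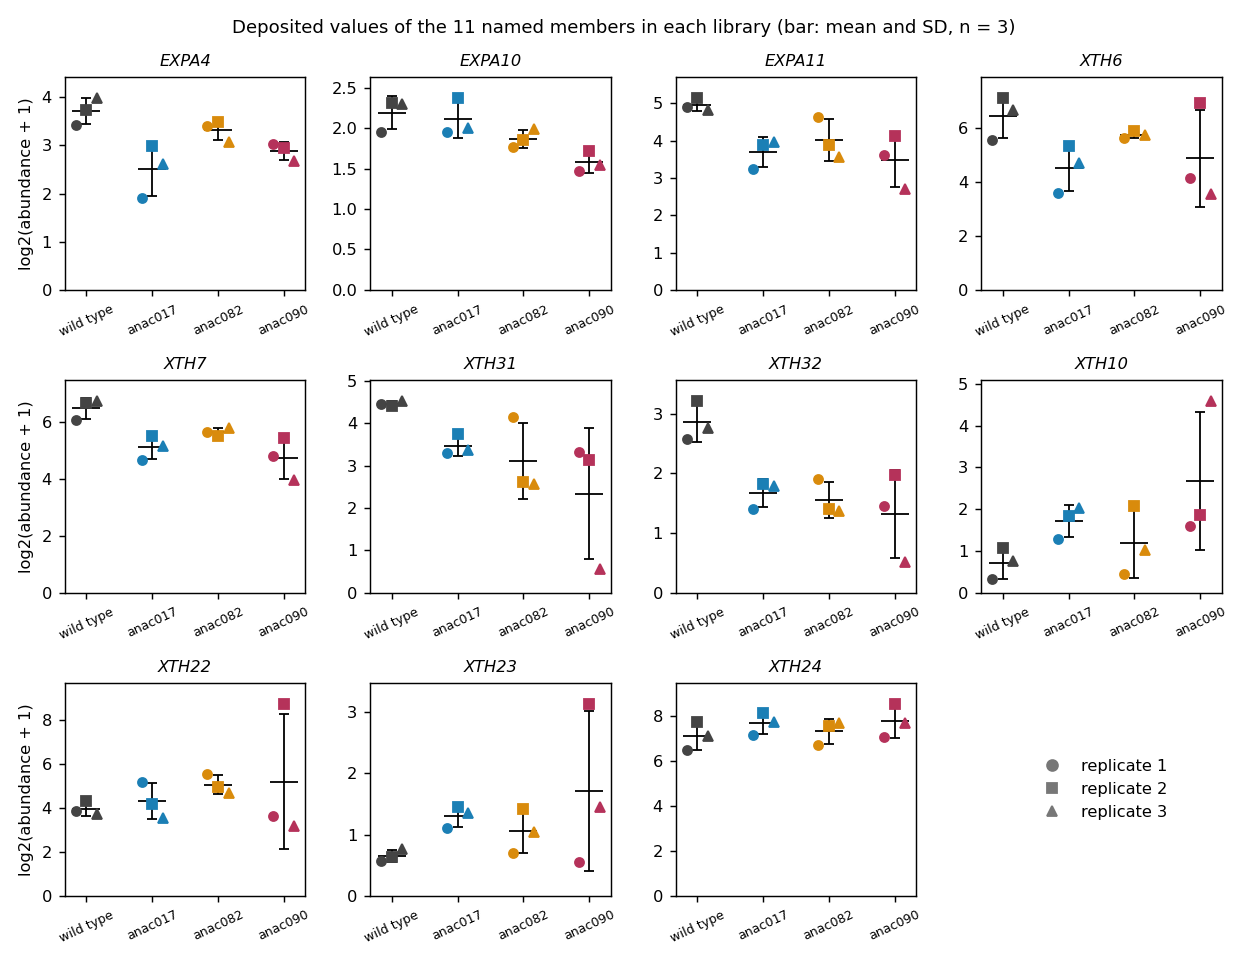
Deposited log2(abundance + 1) values of the 11 named genes in each of the 12 libraries, with the mean and SD of each group (n = 3) as black bars and the replicate number as the symbol. EXPA4, EXPA11, XTH7 and XTH32 sit lower in anac017 and anac090 than in wild type, and XTH22 shows 1 anac090 library at 8.72 with the other two at 3.64 and 3.18.

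The remaining expansins were few. The beta expansins EXPB1 and EXPB3, a family best known from grass walls and pollen, had estimates of -0.61 ± 0.24 and -0.74 ± 0.35 in anac090, and neither passed the threshold. EXLA1 and EXLB1 belong to the expansin-like groups. EXLA1 stood at 3.80, 4.60 and 3.62 in wild type and at 3.52, 7.23 and 2.67 in anac090, so that a single library was 2.28 log2 units above the highest of the other 11. EXLB1 had estimates above 0 in all 3 comparisons (0.19, 0.28 and 0.56), with overlapping groups.

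The XTH family did not move as 1 block. In anac017, 13 of 19 tested XTH genes had estimates below 0 and 6 above, with a median of -0.35. In anac090, 11 were below and 8 above, with a median of -0.02, near the -0.03 over all tested genes. In anac082 these were 11 and 8, with a median of -0.07. Of all tested genes, 53.2%, 53.9% and 52.5% had an estimate below 0 in anac017, anac090 and anac082. The XTH counts below 0 in anac090 and anac082 are near that share. Genes with all 3 mutant values below wild type were 9 of 19 in anac017 (22.6% of all tested genes), 3 of 19 in anac090 (18.2%) and 3 of 19 in anac082 (10.3%), and those with all 3 above were 3, 1 and 1 (19.0%, 13.4% and 8.37%). In anac090 the count of 3 lower genes is near the share over all tested genes.

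Within the family, the genes with the lowest estimates came from both of its branches. XTH7 (AT4G37800, chromosome 4, 17775474 to 17777397) stood at 6.07, 6.68 and 6.74 in wild type and at 4.80, 5.44 and 3.98 in anac090. It fell 3.37-fold (-1.75 ± 0.33, limma adjusted p = 0.0301). In anac017 it was at 4.67, 5.52 and 5.18 (-1.37 ± 0.33, limma adjusted p = 0.0598, and 0.0377 with the block) and in anac082 at 5.65, 5.50 and 5.79 (-0.85 ± 0.33, 0.664). All 9 mutant values of XTH7 lay below all 3 wild type values.

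XTH32 (AT2G36870, chromosome 2, 15472645 to 15474681) and XTH31 (AT3G44990, chromosome 3, 16446975 to 16448764) belong to group III of the family, in the branch known for cutting xyloglucan with water rather than rejoining it. XTH32 stood at 2.59, 3.21 and 2.77 in wild type and 1.46, 1.97 and 0.51 in anac090, a fall of 2.91-fold (-1.54 ± 0.33, limma adjusted p = 0.0349). It was at 1.40, 1.83 and 1.79 in anac017 (-1.18 ± 0.33, limma adjusted p = 0.0777) and at 1.91, 1.40 and 1.38 in anac082 (-1.29 ± 0.33, 0.640), where it had the smallest p of the 35 members. Like XTH7, it showed no overlap between wild type and any mutant. XTH31 stood at 4.45, 4.40 and 4.52 in wild type, and in anac090 at 3.33, 3.14 and 0.55 (-2.12 ± 0.64, limma adjusted p = 0.0629, and 0.0378 with the block), the lowest estimate of any member there. In anac082 library 1 was close to wild type at 4.16 while libraries 2 and 3 were at 2.62 and 2.56 (-1.35 ± 0.64, 0.696). In anac017 it was at 3.29, 3.76 and 3.36 (-0.99 ± 0.64, 0.346).

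XTH6 (AT5G65730, chromosome 5, 26299032 to 26300478) had the lowest estimate of all members in anac017, at 3.59, 5.33 and 4.69 against 5.56, 7.10 and 6.67 in wild type (-1.91 ± 0.76, limma adjusted p = 0.156). In each group its library 1 was the lowest or, in anac090, second lowest. The anac090 values of 4.13, 6.91 and 3.57 overlapped wild type (-1.57 ± 0.76, limma adjusted p = 0.178). XTH4, known from xylem walls, was at 4.25, 6.10 and 2.10 in anac090 and between 5.28 and 5.72 in wild type (-1.39 ± 0.74, limma adjusted p = 0.218). XTH28, known from stamen filament growth, lay close to wild type in all 3 comparisons: -0.08 ± 0.11 in anac017, 0.02 ± 0.11 in anac082 and -0.02 ± 0.11 in anac090, with 95% intervals that stayed between -0.33 and 0.27.

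Fewer XTH genes lay above wild type, and none of them passed the threshold in the fit without the block. Those wholly above it were 3, 1 and 1 of 19 in anac017, anac090 and anac082. These counts did not exceed the share over all tested genes (19.0%, 13.4% and 8.37%). XTH5 was at 3.02, 2.95 and 2.95 in anac017 and 2.75, 2.32 and 2.49 in wild type (0.46 ± 0.15, limma adjusted p = 0.112, and 0.0439 with the block), and it was also above anac082 (0.57 ± 0.15, 0.157, and 0.0442 with the block) and anac090 (0.70 ± 0.15, 0.0544, and 0.0133 with the block). XTH10 (AT2G14620, chromosome 2, 6244781 to 6246233) stood at 0.32, 1.08 and 0.76 in wild type and at 1.59, 1.87 and 4.59 in anac090 (1.96 ± 0.68, limma adjusted p = 0.0857, and 0.0490 with the block). In anac017 it was at 1.30, 1.84 and 2.02 (1.00 ± 0.68, 0.369) and in anac082 at 0.44, 2.08 and 1.03 (0.46 ± 0.68, 0.856). The anac017 and anac090 values of XTH10 were all above the highest wild type value, while those of anac082 overlapped it.

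XTH24 (AT4G30270, chromosome 4, 14819192 to 14820592), first described as the meristem gene MERI5, was at 6.49, 7.72 and 7.12 in wild type and 7.05, 8.53 and 7.69 in anac090. The groups overlapped, while every anac090 value exceeded that of its same-numbered wild type library (0.65 ± 0.43, limma adjusted p = 0.313, and 0.0320 with the block). In anac017 XTH24 was at 7.17, 8.13 and 7.72, likewise each above its same-numbered wild type library. The estimate there was 0.56 ± 0.43 (limma adjusted p = 0.417, and 0.0628 with the block). XTH23 (AT4G25810, chromosome 4, 13128643 to 13129884) was at 1.11, 1.45 and 1.36 in anac017 and between 0.57 and 0.76 in wild type (0.65 ± 0.50, limma adjusted p = 0.420). It was at 0.55, 3.13 and 1.46 in anac090 (1.06 ± 0.50, limma adjusted p = 0.167), and its estimate in anac082 was 0.40 ± 0.50 (0.823). XTH22 (AT5G57560, chromosome 5, 23307130 to 23308282), the touch-induced gene TCH4, was at 3.86, 4.31 and 3.70 in wild type and 5.52, 4.95 and 4.69 in anac082, above wild type in all 3 libraries by 2.14-fold, with a limma adjusted p of 0.788 and an SE of 1.14 log2 units that includes the spread of the anac090 libraries. In anac090 the estimate of XTH22 was 1.22 ± 1.14 (limma adjusted p = 0.479).

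**Figure D2:**
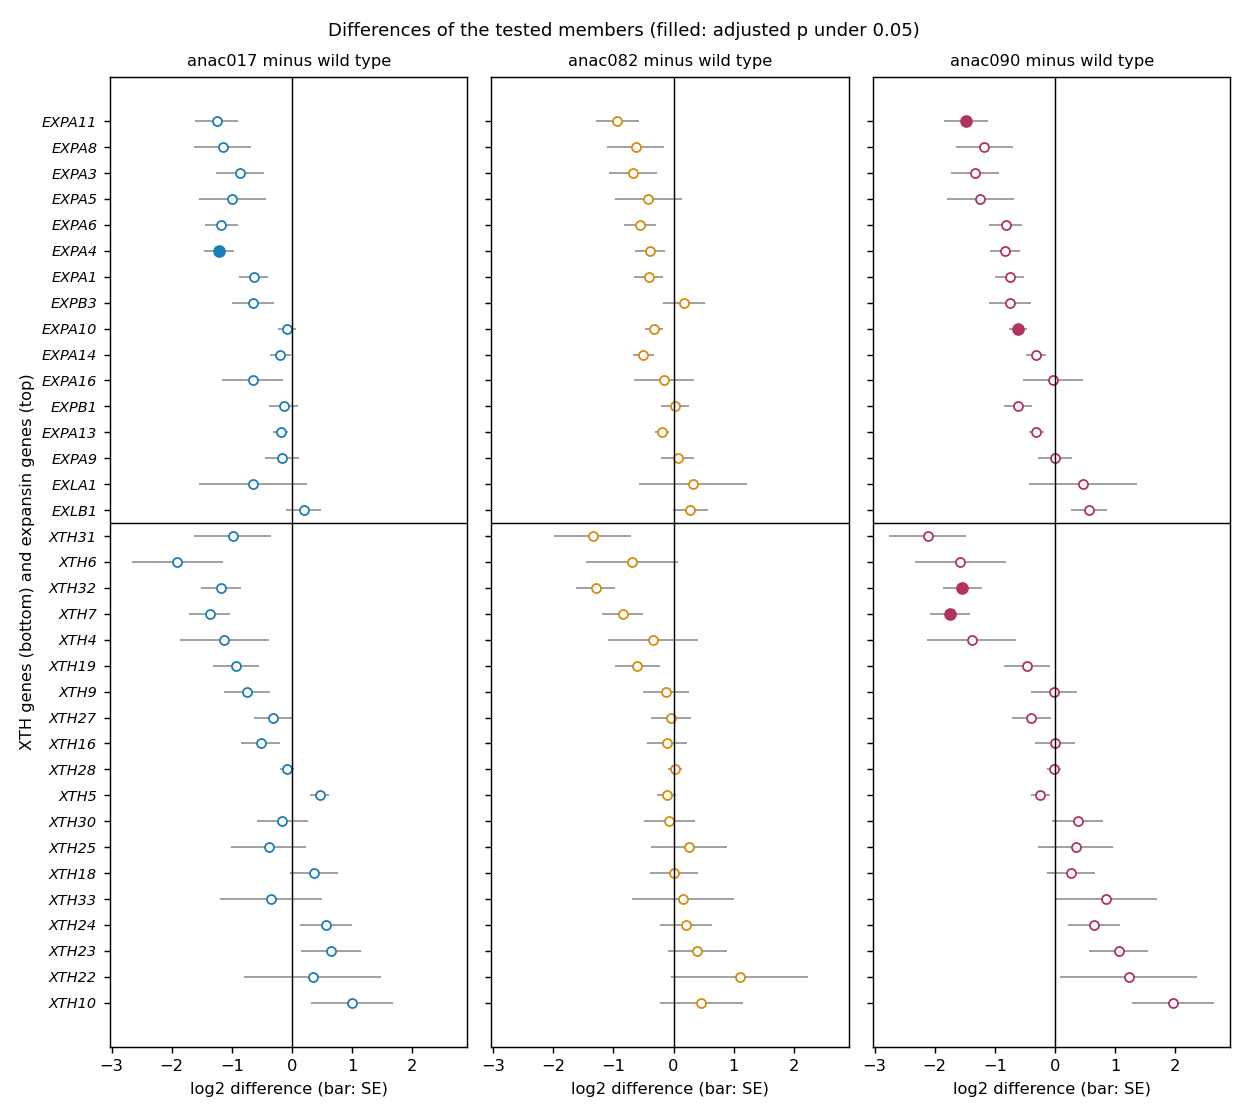
Log2 difference from wild type of the 35 tested genes in anac017, anac082 and anac090, with SE from the limma fit as bars, expansins above the line and XTH genes below it. Filled points passed an adjusted p of 0.05: EXPA4 in anac017, and EXPA10, EXPA11, XTH7 and XTH32 in anac090, all of them negative.

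The 3 anac090 libraries differed from each other more than those of other groups in this module. Library 2 held the highest value of the 12 libraries for 12 of the 35 members, 11 of them XTH, where 6.80% of all tested genes peaked in that library. The 12 include XTH33, which passed the limit for testing only through the anac090 libraries. They also include XTH18, which needed both the anac017 and the anac090 libraries to pass. Both thus entered the test partly or wholly through the group in which they peaked. XTH22 was at 8.72 in library 2, 3.19 log2 units above the next highest library, XTH33, a membrane-anchored XTH, was at 4.19 (2.53 above) and EXLA1 at 7.23 (2.28 above). XTH23 at 3.13 and XTH30 at 4.17 were 1.68 and 1.57 above the next highest library, and XTH25 at 5.54 was 0.90 above it. CML24, a calcium sensor also known as a touch-induced gene and looked up after these values were seen, was at 6.85 in this library and between 3.79 and 5.26 in the other 11. CML12, of the same kind and looked up at the same time, was at 7.86 there and at 8.04 and 8.86 in anac090 libraries 1 and 3, so it did not peak in library 2. Library 3 held the lowest of the 12 values for 19 of the 35 members, 7 of them EXPA and 10 XTH, where 28.1% of all tested genes had their lowest value in it. XTH4 was 2.15 and XTH31 2.01 log2 units below the next lowest library.

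**Figure D3:**
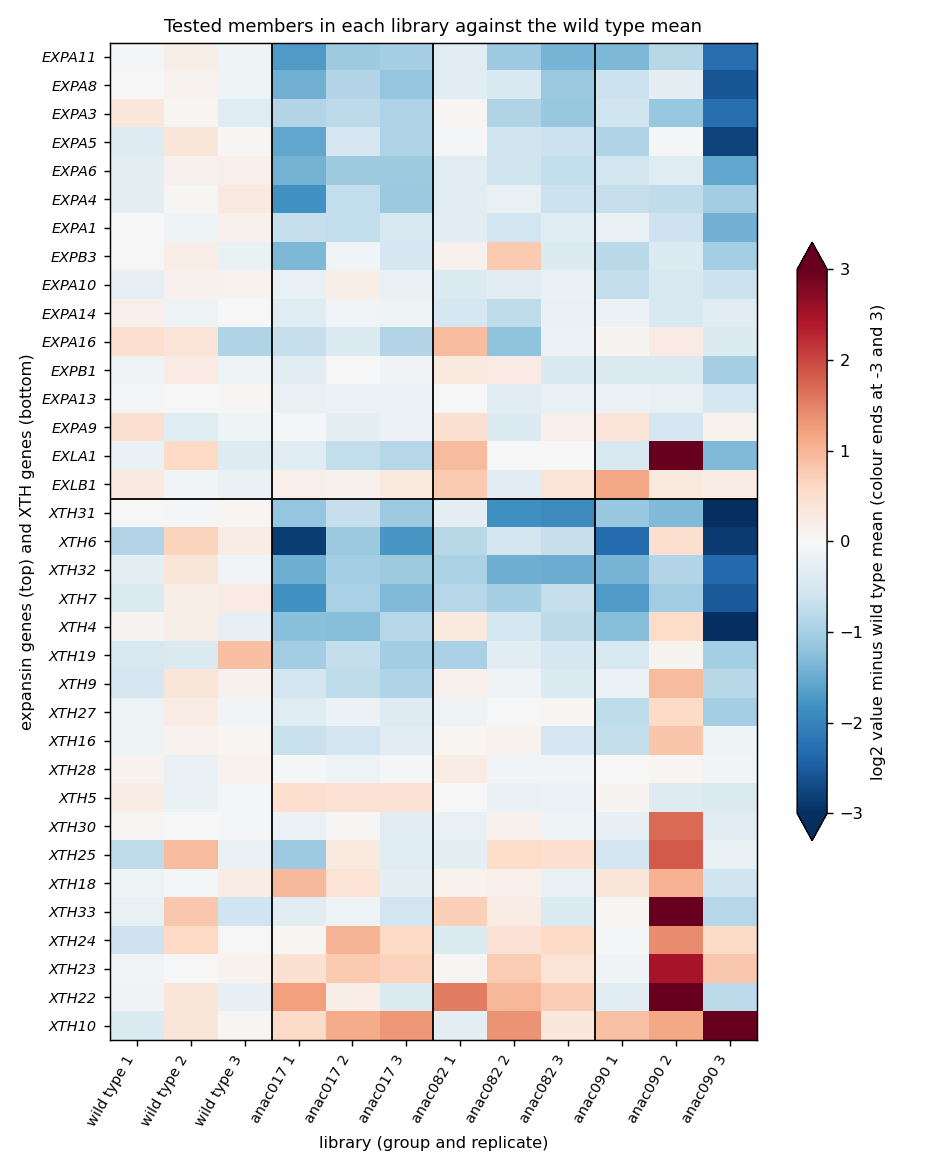
Each of the 35 tested genes (rows, expansins above the line, XTH below) in each library (columns), as log2 value minus the wild type mean, with colours ending at -3 and 3. Blue runs through most EXPA rows in the mutants, while anac090 library 2 is red for XTH22, XTH33, EXLA1, XTH23 and other XTH rows and anac090 library 3 is blue in most rows.

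The counts of called members depended on single libraries. In anac017, 1 member fell and 0 rose (0.612% of all tested genes fell and 1.47% rose), with 9 lower and 1 higher at an unadjusted limma p under 0.05. Over all genes, 4244 of 16817 passed that unadjusted limit, both directions together. With the block, 3 fell (EXPA4, EXPA6 and XTH7, against 3.05% of all genes) and 1 rose (XTH5, against 4.11%). The 1 that fell became 0 without any 1 wild type library, anac017 library 1 or 3, anac082 library 2 or 3, or anac090 library 1, but 6 without anac090 library 2 (4.57% of all genes) and 7 without anac090 library 3 (9.20%). In these last 2 fits 0 rose (5.26% and 8.38% of all genes). In anac090, 4 members fell (3.65% of all tested genes) and 0 rose (3.66%), with 13 lower and 1 higher at an unadjusted p under 0.05. Over all genes, 5418 of 16817 passed that unadjusted limit in anac090, both directions together. With the block 7 fell, the 4 together with EXPA3, EXPA4 and XTH31 (10.1% of all genes), and 2 rose, XTH10 and XTH24 (8.19%). The count that fell became 0 without any 1 wild type library, anac017 library 3 or anac082 library 3. It became 1, a member of the 4, without anac017 library 2, anac082 library 2 or anac090 library 3 (0.601% of all genes lower and 0.874% higher for the last, with 0 members higher). Without anac090 library 1 all 4 were lost and EXPA1 was called in their place (-1.03 ± 0.21, limma adjusted p = 0.0466). Without anac090 library 2 the count was 14, against 16.0% of all genes, and XTH10 rose, against 13.8%. Each of the 4 calls in anac090 was lost on leaving out some single library: XTH7 in 6 of 12 such fits (adjusted p 0.00436 to 0.0978), XTH32 in 9 (0.00493 to 0.104), EXPA11 in 10 (0.00736 to 0.115) and EXPA10 in 10 (0.0154 to 0.124), all with log2 changes below 0. The 14 members called without anac090 library 2 were EXPA1, EXPA3, EXPA4, EXPA5, EXPA6, EXPA8, EXPA10, EXPA11, XTH4, XTH6, XTH7, XTH27, XTH31 and XTH32.

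In anac082, limma called 0 members higher and 0 lower (0.0297% and 0.0178% of all tested genes), with 4 lower and 0 higher at an unadjusted p under 0.05, and with the block 0 and 0 (0.0238% and 0.0119%). The 4 were EXPA11, EXPA14, XTH7 and XTH32, where 1206 of 16817 tested genes passed that unadjusted limit, both directions together. Between mutants limma called 0 members higher and 0 lower in anac017 against anac082 (0.773% and 0.119% of all tested genes), in anac017 against anac090 (1.31% and 0.172%) and in anac082 against anac090 (0.0119% and 0%). Without overlap, 1 member was higher and 7 lower in anac017 against anac082 (11.3% and 12.5% of all tested genes). These were 3 and 0 in anac017 against anac090 (9.53% and 6.89%), and 4 and 0 in anac082 against anac090 (7.42% and 5.16%). At an unadjusted p under 0.05 there were 1 higher and 3 lower in anac017 against anac082, 2 higher and 0 lower in anac017 against anac090, and 3 higher and 0 lower in anac082 against anac090. Over all genes, 1893, 2141 and 1913 of 16817 passed that limit in these comparisons, both directions together. Among the members under that limit, EXPA4 had the largest fall between anac017 and anac082, at -0.82 ± 0.25 (limma adjusted p = 0.206). With the block XTH5 was the 1 member called, in both comparisons of anac017 with another mutant (1.19% and 1.90% of all genes called higher, 0.327% and 0.392% lower). A difference past the threshold in anac090 and not in anac082 is thus not shown to differ between the lines: for XTH7 the difference of anac082 minus anac090 was 0.90 ± 0.33 (limma adjusted p = 0.391).

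Per library, the 12 tested EXPA genes had a mean of -0.92, -0.54 and -0.68 log2 units from the wild type mean in anac017 libraries 1 to 3, -0.10, -0.62 and -0.56 in anac082, and -0.46, -0.46 and -1.31 in anac090. Wild type gave 0.02, 0.06 and -0.08. Every mutant library was thus below the 3 wild type libraries, with anac082 library 1 the closest. The 19 tested XTH genes gave -0.47, -0.18 and -0.41 in anac017, -0.11, -0.07 and -0.29 in anac082, and -0.52, 0.93 and -0.85 in anac090, against -0.25, 0.22 and 0.03 in wild type. For XTH the groups overlapped, and the anac090 libraries spanned the whole range.

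**Figure D4:**
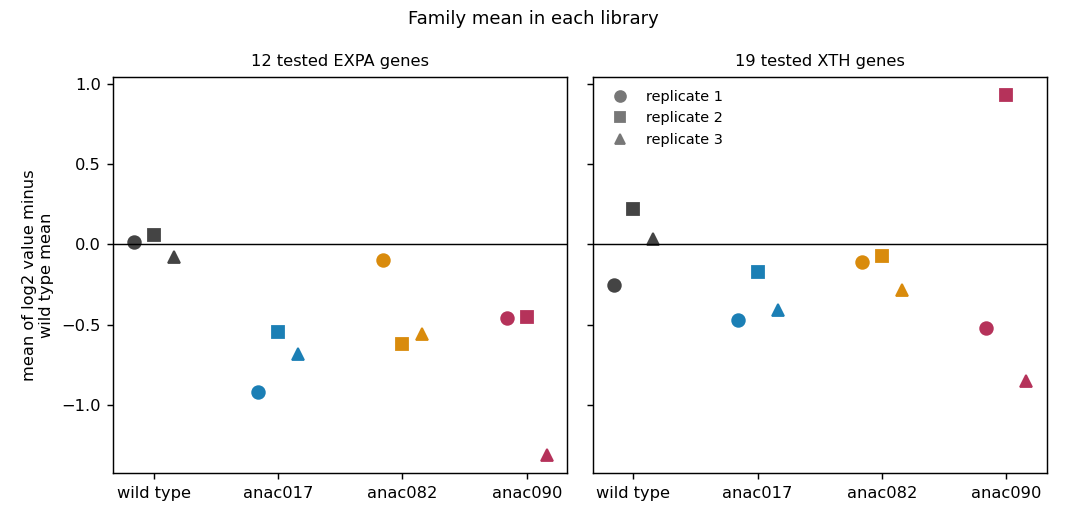
Mean over the 12 tested EXPA genes (left) and the 19 tested XTH genes (right) of the log2 value minus the wild type mean, 1 point per library, with the symbol giving the replicate number. The EXPA means of all 9 mutant libraries lie below those of wild type, while the XTH mean of anac090 library 2 is 0.93 and that of library 3 is -0.85.

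Many members lie close to one another on the chromosomes. In the table's coordinates 21 of the 68 genes have another member within 10 kb. XTH22 and XTH25 on chromosome 5 are 708 bases apart, with XTH12 and XTH13 next to them listed at 0. XTH23 was tested and XTH14, 412 bases away, was listed at 0. On chromosome 4 XTH18 and XTH19 are 1664 bases apart, and in anac017 XTH19 was at 0.89, 1.23 and 0.91 against 1.45, 1.52 and 2.85 in wild type, whereas XTH18 was at 1.77, 1.20 and 0.51 against 0.65, 0.73 and 1.01. Their coding sequences are 87.6% identical, the closest pair of tested members, so reads could have been split between them. This was not tested, and the values of both genes are to be read with that limit. No tested member had a coding sequence over 90% identical to another member, and for 6 it was over 80%.

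The promoters of the 5 members that fell in limma are shown with that of XTH22, which was high in 1 anac090 library, to compare what lies upstream of them. Each is the 300 bases before the RefSeq gene start in TAIR10.1, 5′ to 3′ on the gene's strand, with capitals at a match to a G-box (CACGTG), brassinosteroid response element (CGTGTG or CGTGCG), auxin response element (TGTCTC) or W-box (TTGACC or TTGACT) on either strand; motifs do not overlap here.
EXPA4: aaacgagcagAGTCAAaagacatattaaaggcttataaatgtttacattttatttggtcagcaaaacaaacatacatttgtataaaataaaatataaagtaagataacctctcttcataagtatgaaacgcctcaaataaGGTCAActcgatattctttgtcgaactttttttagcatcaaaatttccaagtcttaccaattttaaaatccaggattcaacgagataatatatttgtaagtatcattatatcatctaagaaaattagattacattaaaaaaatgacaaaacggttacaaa
EXPA10: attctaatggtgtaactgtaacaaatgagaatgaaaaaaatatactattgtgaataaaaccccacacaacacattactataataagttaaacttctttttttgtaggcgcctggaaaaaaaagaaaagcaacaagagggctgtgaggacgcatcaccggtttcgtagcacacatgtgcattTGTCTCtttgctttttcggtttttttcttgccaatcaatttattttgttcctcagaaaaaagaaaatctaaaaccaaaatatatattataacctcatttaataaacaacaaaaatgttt
EXPA11: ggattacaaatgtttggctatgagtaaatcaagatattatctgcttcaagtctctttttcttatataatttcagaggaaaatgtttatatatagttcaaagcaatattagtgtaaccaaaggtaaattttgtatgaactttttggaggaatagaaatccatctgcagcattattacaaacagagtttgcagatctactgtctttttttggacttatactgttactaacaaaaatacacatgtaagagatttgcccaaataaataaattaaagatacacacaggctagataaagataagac
XTH7: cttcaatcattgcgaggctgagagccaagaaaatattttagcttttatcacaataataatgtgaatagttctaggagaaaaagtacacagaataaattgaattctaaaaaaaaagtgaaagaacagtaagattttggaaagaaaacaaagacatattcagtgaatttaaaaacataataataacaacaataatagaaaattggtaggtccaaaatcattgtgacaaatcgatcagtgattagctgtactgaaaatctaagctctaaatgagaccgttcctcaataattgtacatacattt
XTH32: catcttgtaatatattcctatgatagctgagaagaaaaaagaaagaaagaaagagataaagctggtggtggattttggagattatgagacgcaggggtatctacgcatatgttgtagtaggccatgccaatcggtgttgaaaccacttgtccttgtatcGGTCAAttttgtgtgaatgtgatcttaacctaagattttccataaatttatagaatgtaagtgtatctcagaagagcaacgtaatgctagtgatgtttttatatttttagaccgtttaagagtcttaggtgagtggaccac
XTH22: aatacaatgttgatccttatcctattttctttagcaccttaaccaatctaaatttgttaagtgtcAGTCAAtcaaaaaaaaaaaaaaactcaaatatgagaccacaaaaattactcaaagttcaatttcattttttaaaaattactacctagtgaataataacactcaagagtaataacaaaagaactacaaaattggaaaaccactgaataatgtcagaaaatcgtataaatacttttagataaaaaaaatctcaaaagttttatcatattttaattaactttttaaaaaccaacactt
The windows are chr2:16545747-16546046 on the minus strand for EXPA4, chr1:9259132-9259431 on the plus strand for EXPA10, chr1:6999840-7000139 on the minus strand for EXPA11, chr4:17777446-17777745 on the minus strand for XTH7, chr2:15474829-15475128 on the minus strand for XTH32 and chr5:23308681-23308980 on the minus strand for XTH22. Counted from the gene start, EXPA4 holds W-box letters at -290 and -160, XTH32 at -141 and XTH22 at -235, all on the opposite strand, and EXPA10 holds TGTCTC at -119. EXPA11 and XTH7 hold none of the 4 motifs in this window. Over the 35 tested members, 0 held the G-box, against 7.09% of 27443 promoters of protein-coding genes. For the brassinosteroid element it was 5 of 35 against 7.64%, for the auxin element 5 of 35 against 13.0% and for the W-box 7 of 35 against 32.3%. The brassinosteroid element was found before EXPA1, EXPA6, EXPB3, XTH23 and XTH25.

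Other genes of the wall and of brassinosteroids were read beside the module. Of 14 genes for xyloglucan synthesis 12 were tested, and limma called 0 in any comparison with wild type. All 12 estimates were below 0 in anac017 with a median of -0.40, and 8 showed no overlap (22.6% of all tested genes), for example CSLC8, a glucan synthase gene picked after its values were seen, at -0.64 ± 0.16 (limma adjusted p = 0.0669). In anac082 and anac090 the medians were -0.22 and -0.19. Of 9 genes for primary wall cellulose 8 were tested and 0 called, with all 8 estimates below 0 in each mutant and medians of -0.41, -0.33 and -0.56 in anac017, anac082 and anac090. All 8 showed no overlap in anac017 (22.6%) and in anac082 (10.3%), but 1 did in anac090 (18.2%). The 3 genes for trimming xyloglucan gave 0 calls, as did CESA4, the single tested gene of 3 for secondary wall cellulose.

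Of 8 tested genes for brassinosteroid synthesis and signalling, 1 fell in anac017 (0.612% of all tested genes), 2 fell in anac090 (3.65%) and 0 were called lower in anac082 (0.0178%). The medians were -0.40, -0.45 and -0.36, against -0.02, -0.03 and -0.01 over all tested genes. BR6OX2, the enzyme of the last step to brassinolide, fell in anac017 (-0.77 ± 0.16, limma adjusted p = 0.0418) and in anac090 (-0.73 ± 0.16, 0.0365). BIN2, a kinase that holds brassinosteroid signalling down, fell in anac090 as well (-0.39 ± 0.10, limma adjusted p = 0.0473). Of 3 epidermis markers ATML1 and FDH were tested and 0 called, with a median of -0.62 in anac017, -0.46 in anac082 and -0.84 in anac090, and PDF1 was listed at 0. The summed level of these markers was 91.7 to 132 in wild type, 56.4 to 80.3 in anac017, 76.0 to 84.3 in anac082 and 33.2 to 104 in anac090, and its part in the expansin and XTH values was not tested.

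Markers of other leaf cells gave 0 calls in any comparison with wild type, and their part in the expansin and XTH values was not tested either. Of the 3 mesophyll markers, CA1, a carbonic anhydrase gene, had estimates of -0.78 ± 0.35 in anac017 (limma adjusted p = 0.198), -0.39 ± 0.35 in anac082 (0.764) and -1.14 ± 0.35 in anac090 (0.0654). RBCS1A and LHCB1.1, for photosynthetic proteins, stayed between -0.06 and 0.06. Both lay between 10.95 and 11.21 in all libraries. The libraries were made equal in distribution before deposit, which leaves genes at such high values little room to move. These 2 small differences therefore cannot show whether the mesophyll share was stable. The summed mesophyll level, made up mostly of RBCS1A and LHCB1.1 and under the same limit, was 4776 to 5320 in wild type. It was 4498 to 5071 in anac017, 4829 to 4899 in anac082 and 4434 to 4676 in anac090. Of the 4 guard cell markers, the transcription factor genes MYB60 and FAMA had estimates of -0.45 ± 0.16 and -0.53 ± 0.14 in anac017 (limma adjusted p = 0.121 and 0.0677) and -0.41 ± 0.16 and -0.12 ± 0.14 in anac090 (0.103 and 0.562). The other 2, KAT1 and SLAC1, were not lower in anac017. KAT1 averaged 3.660 there and 3.655 in wild type, and SLAC1 1.699 and 1.583. In anac090 KAT1 averaged 3.893 and SLAC1 1.546. The summed guard cell level was 28.6 to 30.3 in wild type, 23.7 to 25.4 in anac017, 23.5 to 29.5 in anac082 and 27.3 to 31.3 in anac090, so that anac017 alone did not overlap wild type. The 3 vasculature markers summed to 199 to 253 in wild type, 199 to 243 in anac017, 192 to 227 in anac082 and 163 to 227 in anac090, which overlapped.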

How the data were processed

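Poly(A) RNA of 12 leaf libraries was turned into stranded TruSeq libraries and run on a HiSeq machine, per the labels' protocols. TopHat, Cufflinks, CASAVA 1.8.2 and the TAIR10 build are listed without role or order, per the submitters' processing notes. The deposited values are log2 values, read as log2(abundance + 1) from their range: back-transformed, they sum to 621025 to 621047 in each library, and values of equal rank differ by at most 0.082, so the libraries were quantile normalized before deposit. No source used here says whether they are per gene length, so levels of different genes are not ranked. Entries without an identifier (529, 1.57%) were left out.

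Groups and replicate numbers come from the titles. Tests used limma 3.58.1 (R 4.3.3) with a mean-variance trend, all 4 groups in 1 fit, 6 comparisons and two-sided p-values. They covered 16817 genes with a mean of at least 1. The fit was checked on simulated data with independent libraries and, for each gene, the same spread in all groups. That check does not cover the wider spread of the anac090 libraries or libraries that deviate together. Same-numbered libraries deviated together (correlation of deviations from group means 0.165 to 0.487) in all comparisons except anac082 against anac090 (-0.310 to 0.497), so values with the replicate number as a block are given beside a result where they change it. No aligned data were used, and the 3 libraries per group set the precision. Named with full statistics are members past the threshold (up to 12 per comparison) and the 3 highest and 3 lowest estimates in each comparison with wild type, 11 in all; other members named in the text were picked after their values were seen. Members, lists and tests were chosen with earlier results of these data known. Promoters and coding sequences were read from RefSeq TAIR10.1; each member's interval in the table lies inside its RefSeq gene. Identity was taken from global alignments of coding sequences in Biopython 1.88.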

Additional observations from a re-analysis of the deposited data

How the results depend on the processing

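Counts of members called are given here per setting. Percentages are the share of all genes in the same fit and direction. With the replicate block, counts in anac017 against wild type became 1 higher (4.11%) and 3 lower (3.05%), from 0 and 1 in the fit reported. In anac090 they became 2 higher (8.19%) and 7 lower (10.1%), from 0 and 4. They became 1 higher in anac017 against anac082 (1.19%) and 1 higher in anac017 against anac090 (1.90%), from 0 each. The block changed no other count. With only the 2 groups compared in the fit they were 3 higher (10.3%) and 12 lower (11.2%) in anac017 and 0 lower (0.006%) in anac090. With no filter on low values they were 0 lower in anac017 (0.327%) and 1 lower in anac090 (0.903%). With a filter at a mean of 5, which fewer members pass, they were 2 lower in each (0.695% and 4.365%). With a weight per library, a fit that did not fully converge and gave weights from 0.132 to 28.2, the 28.2 to anac090 library 1, counts were 1 higher and 13 lower in anac017, 4 lower in anac082, 1 higher and 16 lower in anac090, 1 higher in anac017 against anac082, 4 higher and 5 lower in anac017 against anac090, and 6 higher and 1 lower in anac082 against anac090. In this weighted fit the difference of XTH23 in anac017 minus anac090 turned from -0.41 to 0.75 (limma adjusted p = 0.0460). The cause was not tested. Without anac082 library 1 and anac090 library 3 together, counts were 1 higher and 10 lower in anac017, 4 lower in anac082 and 1 higher in anac017 against anac082. A pseudocount of 0.1 and equal library medians moved no count by over 1.5 times. Leaving out each library in turn gave 0 to 7 lower in anac017, 0 to 14 lower and 0 to 1 higher in anac090, 0 to 1 higher in anac017 against anac090, and 0 to 0 in the other counts. The 7 stood against 9.20% of all genes and the 14 against 16.0%. The 1 higher stood against 13.8% in anac090 and against 1.02% in anac017 against anac090. Only 3 libraries per group and an unknown depth limit what could be called.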
